A study of Mus musculus with 24 samples.

Results

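The 10 genes Csf1, Il34, Csf1r, Tyrobp, Trem2, Irf8, Irf5, Spi1, Itgam and Aif1, which encode the CSF1 pathway and markers and regulators of microglial activation, were followed in mouse spinal cord after nerve injury. They were chosen by name, without use of their values, and are 10 of the 32884 genes in the table. All 10 had a mean of at least 0.5 FPKM (fragments per kilobase of transcript and mapped library size) over the input libraries and so were among the 15564 genes tested. In the injured mice the tibial and common peroneal nerves were tied and cut and the third branch of the sciatic nerve was left intact, which is called spared nerve injury. Spinal cord was taken on day 3, day 7 or day 14 after injury. The sham mice, whose nerves were only exposed, carry the day 3 label, so no later sham was compared. In each of the 4 groups there were 3 input libraries of poly(A) RNA and 3 libraries of fragments pulled down with an antibody to N6-methyladenosine (m6A), 24 in all. The labels used here give no strain, sex, age, side or cord segment.

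Microglia, the resident macrophages of the cord, need signalling through the receptor tyrosine kinase CSF1R to survive and divide, and both CSF1 and IL-34 are its ligands. Axon-damaged sensory and motor neurons are known to make CSF1, whereas IL-34 is made by many resting neurons. TYROBP (DAP12) is the adaptor that carries signals from TREM2 and other receptors, and it is also known to act downstream of CSF1R in microglia after nerve injury. PU.1, the product of Spi1, and IRF8 set microglial identity, and IRF8 and IRF5 are known as regulators of the reactive state that follows nerve injury. Itgam encodes CD11b, the alpha chain of complement receptor 3, and Aif1 encodes the calcium-binding protein Iba1, the usual stain for microglia.

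PU.1 binds DNA at sites with the core GAGGAA, and its own gene is among the 10. The 100 bases upstream of the RefSeq start (GRCm38.p6, 5′ to 3′ on the gene's strand) are shown for the 3 genes that hold it and for Csf1, the ligand gene, that does not. Capitals mark GAGGAA or, for the opposite strand, TTCCTC. The windows are chr7:128062540-128062639 on the plus strand for Itgam, chr17:35176053-35176152 on the minus strand for Aif1, chr17:48346301-48346400 on the plus strand for Trem2 and chr3:107760470-107760569 on the minus strand for Csf1.
Itgam: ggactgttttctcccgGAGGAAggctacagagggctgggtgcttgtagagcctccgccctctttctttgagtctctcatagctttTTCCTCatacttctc
Aif1: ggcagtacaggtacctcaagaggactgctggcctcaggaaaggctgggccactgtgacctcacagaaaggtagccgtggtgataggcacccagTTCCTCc
Trem2: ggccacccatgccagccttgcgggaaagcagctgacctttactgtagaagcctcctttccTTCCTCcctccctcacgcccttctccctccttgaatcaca
Csf1: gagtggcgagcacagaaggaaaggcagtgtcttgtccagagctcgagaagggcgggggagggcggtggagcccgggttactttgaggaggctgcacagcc
In these letters Itgam holds the core at 84 to 79 bases before the start as written and again at 15 to 10 bases on the opposite strand. Aif1 holds it 7 to 2 bases and Trem2 40 to 35 bases before the start, both on the opposite strand. RefSeq promoter entries were at hand for 6 of the 10 genes (Csf1, Irf5, Itgam, Irf8, Aif1 and Trem2). Over 250 bases upstream and on both strands, 3 of these 6 held the core, as did 23.3% of all 32851 promoters. The interferon regulatory factor repeat GAAANNGAA, which overlaps no PU.1 core here, was found in Aif1 alone among the 6 and in 7.13% of all promoters. The AP-1 site TGANTCA was found in Trem2 (6.75% of all promoters), and the STAT site TTCNNNGAA in 2 places in Irf8, at 171 to 163 and 153 to 145 bases before the start (7.02%). Such matches describe letters only.

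The data fell into 10 alike libraries and 2 that stood apart. Day 7 library 3 and sham library 3 correlated with each other at 0.983 (Pearson, log2 values over genes) but with the other libraries at 0.925 to 0.942, where the others correlated among themselves at 0.979 to 0.988. FPKM summed to 181738 and 180340 in these 2 libraries and to between 197878 and 201358 in the other 10. Read counts were not used here, so depth is unknown and precision rests on the spread between libraries. Whether the 3 libraries within a group come from separate mice is not stated in the labels, so p-values measure only the spread between these libraries, which may be technical. Results are given with and without the 2 libraries. In whole tissue, more microglia and more RNA per microglial cell cannot be told apart.

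The mean level of each of the 10 genes was higher in every injured group than in sham, but none of the 10 passed an adjusted p of 0.05 in the fit of all 12 libraries (limma on log2(FPKM + 0.5), 4 group means, Benjamini-Hochberg adjustment over all genes tested). That held for each day against sham, where 0.0578% of tested genes passed on day 3, 0.103% on day 7 and 0.0514% on day 14. It also held when the 3 injured groups together were set against sham, where 0.129% passed. The median log2 difference of the 10 genes was 0.46 on day 3, 0.42 on day 7 and 0.33 on day 14, against medians of 0.028, 0.0062 and 0.031 over all genes tested. The individual libraries are given next by role, since sham library 3 was the lowest of the sham libraries for 7 of the 10 genes.

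The ligand gene Csf1 (ENSMUSG00000014599, chr3:107741048-107760469, minus strand) was at 8.90, 8.86 and 7.45 FPKM in the 3 sham libraries. It was at 9.69, 9.75 and 9.83 FPKM on day 3, at 9.70, 10.4 and 8.50 FPKM on day 7, and at 10.5, 11.2 and 9.59 FPKM on day 14. Day 3 and day 14 lay wholly above sham, while the third day 7 library fell among the sham values. With Il34, Csf1 was 1 of 2 members whose highest mean came on day 14. The day 14 mean of Csf1 was 10.4 ± 0.794 FPKM (SD, n = 3) against 8.40 ± 0.827 FPKM in sham. The log2 difference was 0.21 on day 3, 0.17 on day 7 and 0.30 on day 14 (SE 0.097), with limma adjusted p-values of 0.695, 1.0 and 0.700. The differences without the 2 libraries were 0.13, 0.17 and 0.22 on days 3, 7 and 14 (limma adjusted p = 0.230, 0.291 and 0.0729). Leaving out sham library 3 alone gave 0.13 on day 3 and 0.094 on day 7.

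The other ligand gene, Il34 (ENSMUSG00000031750, chr8:110741829-110805924, minus strand), was at 5.97, 5.06 and 2.94 FPKM in sham. It stood at 5.64, 4.96 and 5.87 FPKM on day 3, at 6.12, 5.68 and 3.78 FPKM on day 7 and at 5.66, 5.60 and 5.73 FPKM on day 14. All 3 injured groups overlapped sham, and the 2 lowest values were those of the 2 libraries that stood apart. The log2 difference of 0.26 on day 3 (SE 0.22, limma adjusted p = 0.695) became -0.0052 (SE 0.080) without them. Csf1 exceeded Il34 in every library, with a ratio of FPKM of 1.92 ± 0.540 (SD, n = 3) in sham and 1.79 ± 0.157, 1.89 ± 0.336 and 1.84 ± 0.161 on the injured days, which differed by less than the spread between libraries.

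**Figure D1:**
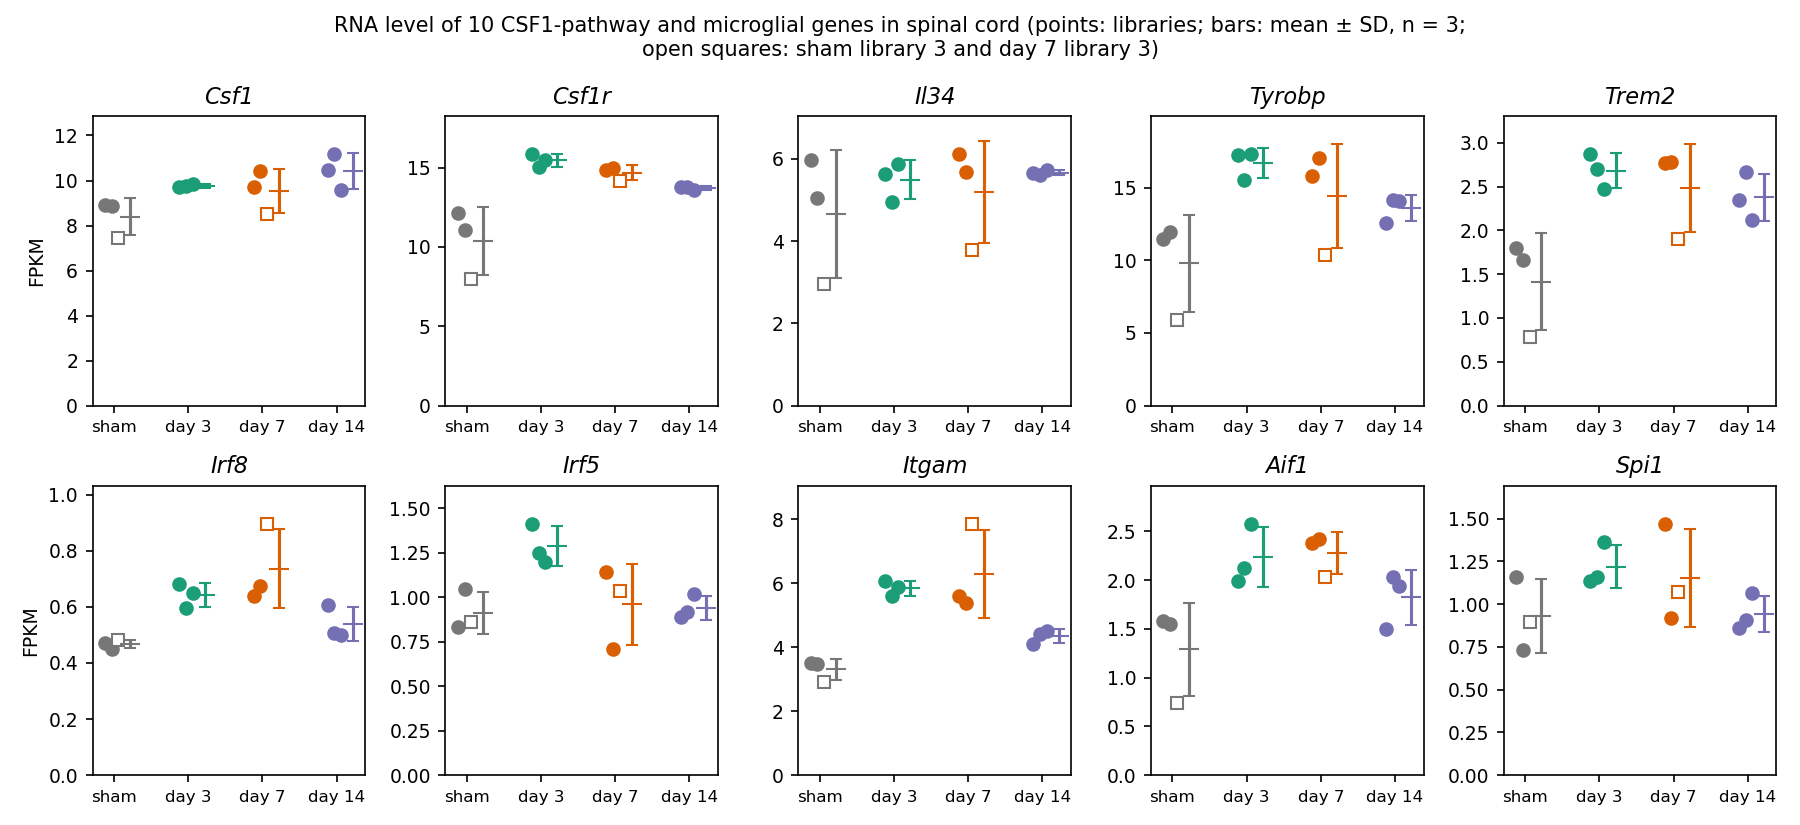
FPKM (vertical axes, each from 0) of the 10 genes in the 12 input libraries by group (horizontal axes). Points are libraries, bars the mean and SD of 3 libraries, and open squares the 2 libraries that stood apart. Csf1r, Trem2, Irf8 and Itgam have all 9 injured libraries above all 3 sham libraries.

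The receptor gene Csf1r (ENSMUSG00000024621, chr18:61100598-61132149, plus strand) had all 9 injured libraries above all 3 sham libraries. Sham stood at 12.1, 11.0 and 7.98 FPKM. Day 3 stood at 15.9, 15.0 and 15.5 FPKM, day 7 at 14.9, 15.0 and 14.1 FPKM and day 14 at 13.8, 13.8 and 13.6 FPKM. The day 3 mean was the highest and the day 14 mean the lowest of the injured groups, and most of the spread between libraries lay in sham. The log2 difference was 0.57 on day 3, 0.50 on day 7 and 0.41 on day 14 (SE 0.12), with limma adjusted p-values of 0.239, 0.553 and 0.700. Csf1r was called on all 3 days without the 2 libraries: it rose by a log2 of 0.40 on day 3, 0.35 on day 7 and 0.24 on day 14, with limma adjusted p-values of 0.000836, 0.00645 and 0.0140.

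Tyrobp (ENSMUSG00000030579, chr7:30413760-30417585, plus strand), the adaptor, was with Csf1r the most abundant of the 10, at the 80.2nd percentile of tested genes by mean FPKM. Sham stood at 11.5, 11.9 and 5.92 FPKM, day 3 at 17.3, 15.5 and 17.3 FPKM, day 7 at 15.8, 17.1 and 10.3 FPKM and day 14 at 12.6, 14.2 and 14.1 FPKM. The day 7 library that stood apart fell below sham libraries 1 and 2, but above its counterpart in sham. The log2 difference on day 3 was 0.80 (SE 0.25, limma adjusted p = 0.618). Leaving out the 2 libraries gave 0.49 on day 3 and 0.47 on day 7, both called (limma adjusted p = 0.00369 and 0.0216), and 0.20 on day 14, not called (0.130).

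Trem2 (ENSMUSG00000023992, chr17:48346401-48354147, plus strand), the lipid-sensing receptor that pairs with TYROBP, had all 9 injured libraries above sham. It was at 1.80, 1.66 and 0.778 FPKM in sham, 2.87, 2.70 and 2.47 FPKM on day 3, 2.77, 2.79 and 1.90 FPKM on day 7 and 2.35, 2.66 and 2.12 FPKM on day 14. The 3 injured groups overlapped one another. The log2 difference was 0.78, 0.67 and 0.63 on the 3 days (SE 0.21, limma adjusted p = 0.492, 1.0 and 0.700). Without the 2 libraries it rose by 0.51 on day 3 and 0.56 on day 7 (limma adjusted p = 0.0110 and 0.0346) and stood 0.36 higher on day 14 (0.0524, not called).

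Itgam (ENSMUSG00000030786, chr7:128062640-128118491, plus strand), the CD11b gene, had the smallest adjusted p of the 10 genes. Sham stood at 3.52, 3.48 and 2.91 FPKM, day 3 at 6.07, 5.59 and 5.87 FPKM, day 7 at 5.61, 5.37 and 7.86 FPKM and day 14 at 4.10, 4.41 and 4.51 FPKM. No injured library overlapped sham, and day 14 lay below both earlier days without overlap. Its log2 difference was 0.74 on day 3, 0.82 on day 7 and 0.35 on day 14 (SE 0.13), and its limma adjusted p-values were 0.110, 0.0599 and 0.700. Itgam rose on all 3 days without the 2 libraries, by 0.66, 0.58 and 0.27 (limma adjusted p = 0.000226, 0.00171 and 0.0203).

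Itgam was also the one member called between injured days, though not with all libraries. In the fit of all libraries it was 0.47 lower on day 14 than on day 7 and 0.39 lower than on day 3 on the log2 scale, neither called. None of the 10 was called between injured days in that fit, where 0.0129% of genes passed between day 7 and day 3, 0.0321% between day 14 and day 7 and 0.0129% between day 14 and day 3. Without the 2 libraries Itgam fell by 0.31 from day 7 to day 14 (limma adjusted p = 0.0159) and by 0.39 from day 3 to day 14 (0.00511). It was then 1 of 10 members called lower in each comparison, where 1.61% and 1.05% of all genes were called lower. Tyrobp and Csf1r, at -0.29 and -0.17 from day 3 to day 14, stood just short of the threshold (limma adjusted p = 0.0507 and 0.0551).

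Aif1 (ENSMUSG00000024397, chr17:35170991-35176068, minus strand), the Iba1 gene, was at 1.58, 1.55 and 0.743 FPKM in sham, 1.99, 2.13 and 2.58 FPKM on day 3, 2.38, 2.43 and 2.03 FPKM on day 7 and 1.50, 2.03 and 1.94 FPKM on day 14. Days 3 and 7 lay above sham, and 1 day 14 library fell among the sham values. Its log2 difference was 0.64 on day 3 and 0.67 on day 7 (SE 0.19, limma adjusted p = 0.570 and 0.907). The values were 0.40 and 0.49 without the 2 libraries, again not called (0.0831 and 0.143).

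The transcription factor genes were the least abundant members. Spi1 (ENSMUSG00000002111, chr2:91082390-91115756, plus strand) was at 1.16, 0.730 and 0.897 FPKM in sham, 1.14, 1.16 and 1.36 FPKM on day 3, 1.47, 0.917 and 1.07 FPKM on day 7 and 0.858, 0.905 and 1.06 FPKM on day 14. Every injured group overlapped sham, and the log2 difference was 0.28, 0.21 and 0.022 on the 3 days (SE 0.15). The day 14 value turned to -0.0063 under quantile scaling and to -0.00101 under median-of-ratios scaling.

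Irf8 (ENSMUSG00000041515, chr8:120736358-120756694, plus strand), at the 3.49th percentile of tested genes, was at 0.472, 0.451 and 0.481 FPKM in sham. It stood at 0.682, 0.596 and 0.648 FPKM on day 3, 0.638, 0.676 and 0.897 FPKM on day 7 and 0.607, 0.507 and 0.499 FPKM on day 14. All 9 injured libraries lay above sham, the day 14 ones by the least, and the highest value belonged to the day 7 library that stood apart. Its log2 difference of 0.24 on day 3, 0.35 on day 7 and 0.099 on day 14 (SE 0.10) is understated by the pseudocount at this level. Mean FPKM was 0.642 ± 0.0432, 0.737 ± 0.140 and 0.538 ± 0.0602 on the injured days against 0.468 ± 0.0152 in sham (SD, n = 3). It was called in no comparison with or without the 2 libraries.

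Irf5 (ENSMUSG00000029771, chr6:29526625-29541871, plus strand) was at 0.831, 1.04 and 0.859 FPKM in sham and at 1.41, 1.25 and 1.20 FPKM on day 3, all above sham. It was at 1.14, 0.707 and 1.03 FPKM on day 7 and 0.891, 0.915 and 1.02 FPKM on day 14, both overlapping sham. The log2 difference was 0.34 on day 3 (SE 0.12, limma adjusted p = 0.695) and 0.040 and 0.031 on days 7 and 14. The ratio of Irf8 to Irf5 in FPKM was 0.520 ± 0.0760 in sham, 0.500 ± 0.0358 on day 3, 0.794 ± 0.209 on day 7 and 0.576 ± 0.0969 on day 14 (SD, n = 3). The libraries of each injured group overlapped those of sham in this ratio, and those of day 3 and day 7 did not overlap each other.

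Counted over the 10 genes, 8 had all 3 day 3 libraries above all 3 sham libraries (all but Il34 and Spi1), where 13.4% of all genes did. On day 7 the count was 5 (Csf1r, Trem2, Irf8, Itgam and Aif1) against 2.78% of all genes. On day 14 it was 6 (Csf1, Csf1r, Tyrobp, Trem2, Irf8 and Itgam) against 12.2%. In 4 genes, Csf1r, Trem2, Irf8 and Itgam, all 9 injured libraries lay above sham, where 0.925% of all genes did so. Irf8 averaged 0.468 FPKM in sham and passed the filter of 0.5 FPKM only through the injured groups. The filter thus favoured its place in each of these counts, and nothing is read from it there. Without the 2 libraries, 4 of 10 genes were called higher on day 3, day 7 and in the mean of the injured days, the same 4 each time: Csf1r, Tyrobp, Trem2 and Itgam. The shares of all genes called higher were then 4.01%, 0.732% and 2.47%. On day 14 Csf1r and Itgam were called, 2 of 10, where 2.42% of all genes were. With the alike libraries of a group averaged, leaving 6 samples, none of the 10 was called in any comparison.

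**Figure D2:**
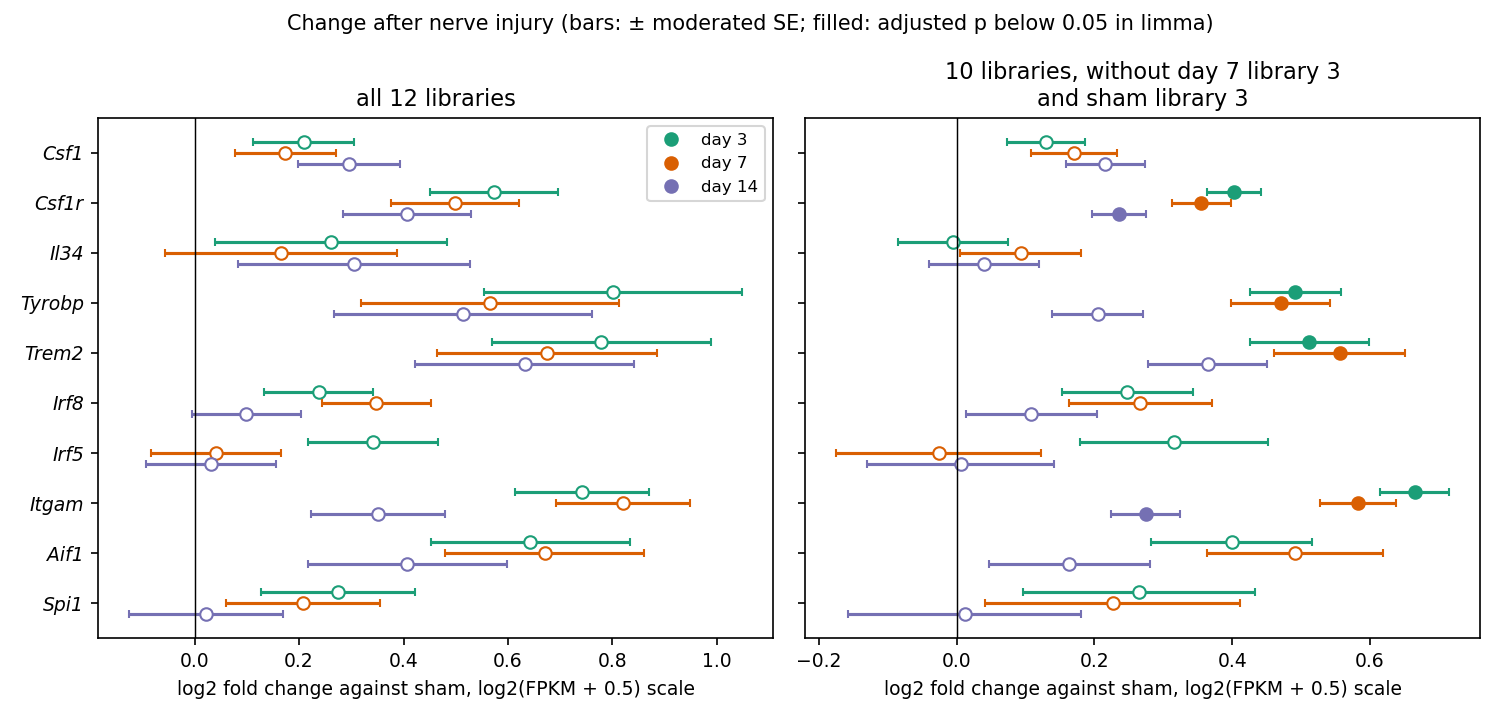
Log2 fold change against sham on the log2(FPKM + 0.5) scale (horizontal axes) for the 10 genes (vertical axis) on days 3, 7 and 14. Bars are moderated standard errors and filled points have an adjusted p below 0.05. With all 12 libraries no point is filled; without day 7 library 3 and sham library 3, Csf1r, Tyrobp, Trem2 and Itgam have filled points.

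The 2 libraries that stood apart give a second view of day 7, since one is injured and the other sham. Between them 9 of the 10 genes differed in the same direction as in libraries 1 and 2, and Irf5 did not. The share of all genes alike in direction is not given here, so nothing particular to the 10 genes is read from this count. Itgam was 1.29 higher on the log2 scale in day 7 library 3 than in sham library 3, against 0.58 between the means of libraries 1 and 2. The pairs of values were 1.03 and 0.49 for Aif1, 0.91 and 0.56 for Trem2, 0.79 and 0.35 for Csf1r, and 0.76 and 0.47 for Tyrobp. Csf1 differed by 0.18 and 0.17. With 1 library on each side there is no test of these values.

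**Figure D3:**
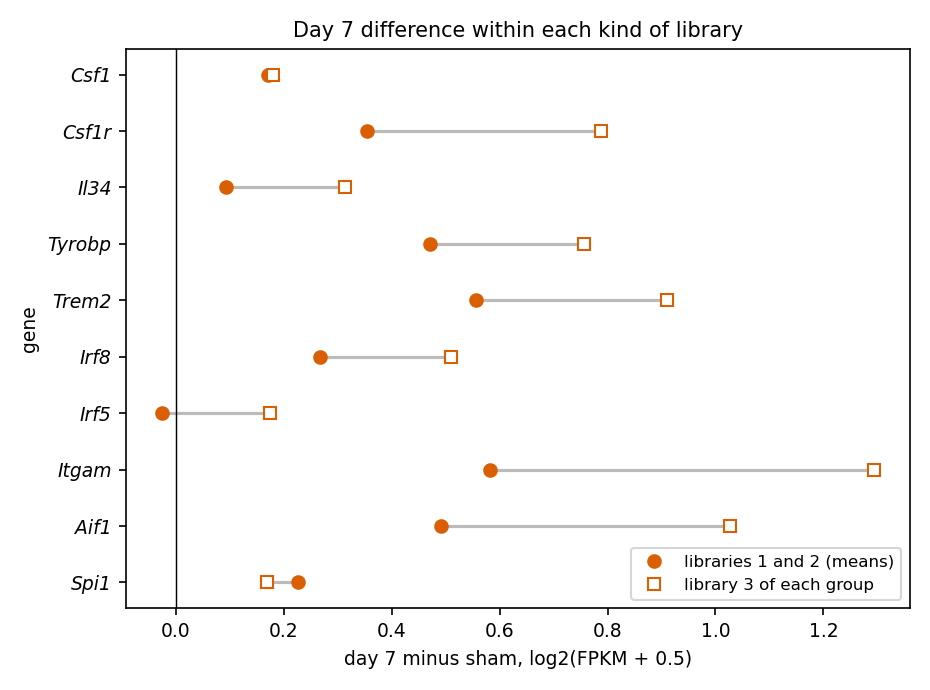
Day 7 minus sham in log2(FPKM + 0.5) (horizontal axis) for each gene (vertical axis), from the means of libraries 1 and 2 (filled circles) and from library 3 of each group (open squares). Itgam is at 0.58 and 1.29, and Csf1 at 0.17 and 0.18.

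Across the 10 libraries other than those apart, Csf1r, Tyrobp, Trem2, Irf8 and Itgam had Pearson r between 0.833 and 0.969 for their 10 pairs. Over all 12 libraries the same pairs ran from 0.284 (Tyrobp with Irf8) to 0.957 (Csf1r with Trem2). These 5 genes are set apart by the same values, so the range is no test. In the 10 libraries, pairs of the 5 with Aif1, Spi1 or Irf5 ran from 0.271 (Trem2 with Irf5) to 0.897 (Tyrobp with Aif1). Csf1 had r = 0.685 with Trem2 and 0.511 with Csf1r in the 10 libraries, and Il34 had 0.163 and 0.251. Over all 12 libraries the 2 ligand genes were nearer each other in this, at 0.872 and 0.750 for Csf1 and 0.794 and 0.703 for Il34. These correlations are descriptions over libraries that share group, tissue and preparation. Over all 12 libraries, the genes most alike in pattern to Csf1r were C1qc (r = 0.970), Trem2 (0.957) and C1qb (0.955), and those most alike to Itgam were Cx3cr1 (0.959), Cd24a (0.954) and Olfml3 (0.950). For Trem2 they were Ctsd (0.978), C1qc (0.958) and Csf1r (0.957), and for Aif1 Siglech (0.964), Bpgm (0.951) and Glo1 (0.931). For Csf1 they were Abhd17c (0.957), Fads3 (0.951) and Gal (0.942), and Gal, a neuropeptide gene, is known to be switched on in axotomised neurons. In the 10 libraries the 3 nearest to Csf1 were instead Pcdhga6 (0.919), Bet1l (0.918) and Flot2 (0.916). C1qb stayed among the 3 nearest to Csf1r (0.956), Ctsd to Trem2 (0.937) and Siglech to Aif1 (0.932), while none of the 3 nearest to Itgam did.

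Genes around the pathway were read as lists of partners, TREM2-related genes, beta2 integrins and genes downstream of IRF8 or IRF5. No gene of these lists passed with all libraries, but some were called without the 2 libraries. The shares of all genes called higher in that setting were 4.01% on day 3, 0.732% on day 7 and 2.42% on day 14. Of 16 signalling partners of CSF1R and TYROBP, 12 were tested and none passed on any day in the fit of all libraries. Ptpn6, which encodes the phosphatase SHP-1, and Plcg2, the phospholipase downstream of TREM2, stood 0.54 and 0.58 higher on day 3 (limma adjusted p = 0.176 and 0.231). Both genes were, without the 2 libraries, called higher on day 3, at 0.52 and 0.59 (0.0337 and 0.0321), and no other partner was called on any day. Of 12 TREM2 ligand and related receptor genes, 9 were tested and none passed with all libraries. Apoe, Siglech and Fcgr3 were called higher on day 3 without the 2 libraries, 3 of 9. Apoe and Fcgr3 were called on day 14 in that setting, and none was on day 7. Apoe, a lipid carrier and TREM2 ligand, was at 562 ± 35.2 FPKM in sham and 657 ± 15.6 FPKM on day 3 (SD, n = 3), a log2 difference of 0.23 (limma adjusted p = 0.695) that was called without the 2 libraries at 0.18 (0.00225).

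Of 7 beta2 integrin genes, 4 were tested and none passed with all libraries. Itgb2, the beta chain that pairs with CD11b, was at 1.54 ± 0.173 FPKM in sham and 2.52 ± 0.310, 2.32 ± 0.134 and 2.17 ± 0.0454 FPKM on days 3, 7 and 14 (SD, n = 3). Its log2 difference of 0.56 on day 3 (limma adjusted p = 0.110) was called without the 2 libraries at 0.49 (0.0111). Fermt3 was also called higher there, so 2 of the 4 tested were. Of 7 genes reported to act downstream of IRF8 or IRF5 in spinal microglia, 6 were tested and none passed with all libraries. Among them Ctss, which encodes the lysosomal protease cathepsin S, was at 38.5 ± 3.47 FPKM in sham and 51.0 ± 2.21, 59.3 ± 10.7 and 51.4 ± 1.28 FPKM on the injured days, and was called on all 3 days without the 2 libraries at 0.47, 0.53 and 0.49 (limma adjusted p = 0.000397, 0.000827 and 0.000294). Cx3cr1 was also called higher on days 3 and 7 in that setting, so 2 of the 6 tested were called on those days. None of 7 tested cell division genes, of 12 listed, passed with or without the 2 libraries. Of those tested, Ccna2 was at 0.425 to 0.517 FPKM in sham and 0.791 to 1.16 FPKM on day 3, and overlapped sham on days 7 and 14. Its sham mean of 0.474 FPKM was below the filter, which it passed through days 3 and 7. The more abundant Ccnd1 and Pcna overlapped sham on day 3. Cdk1 and Ccnb1 were below 0.5 FPKM in every library. Whether cells divided was not tested.

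Irf8 and Irf5 were set beside the other interferon regulatory factors. Of 7 listed, 5 were tested and none passed with all libraries, with a median log2 difference of -0.13 on day 3. Irf7, a driver of the interferon response, was at 2.11 ± 1.21 FPKM in sham and 0.799 ± 0.236 FPKM on day 3 (SD, n = 3), a log2 difference of -0.88 (limma adjusted p = 0.695). Its sham libraries ran from 0.731 to 3.00 FPKM and overlapped those of day 3, at 0.527 to 0.947 FPKM. Without the 2 libraries Irf7 fell by 1.36 and Irf9 fell by 0.40 on day 3 (limma adjusted p = 0.00225 and 0.00311). Irf3 was also called lower, so 3 of the 5 were, where 477 of 15564 genes were called lower. Of 9 tested myeloid transcription factors, of 11 listed, none passed with all libraries. Without the 2 libraries Etv5 was called lower on all 3 days, by 0.33 on day 3 (limma adjusted p = 0.00143), and Bhlhe41 was called higher on day 14.

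Markers of microglia and of axon-damaged neurons were read in the same libraries. Of 12 homeostatic microglia markers, all tested, Tmem119 alone passed with all libraries. It rose on day 3 by a log2 of 0.66 (limma adjusted p = 0.0355), from 3.82 ± 0.348 to 6.31 ± 0.338 FPKM (SD, n = 3), and was not called on days 7 and 14. The median of the 12 was 0.43, 0.46 and 0.25 on the 3 days, close to the medians of the 10 genes described here. In the 10 other libraries 7 of the 12 were called higher on day 3, 4 on day 7 and 3 on day 14, so calls in that setting were not limited to the 10 genes. Among 12 genes of axotomised neurons, the cells known to release CSF1, 2 rose on day 3 and 4 on each of days 7 and 14 with all libraries. Atf3, a transcription factor switched on by axon damage, was at 0.422 ± 0.141 FPKM in sham and at 6.27 ± 0.224, 8.75 ± 1.51 and 5.83 ± 0.459 FPKM on the injured days (SD, n = 3), a log2 rise of 2.89, 3.33 and 2.79 (limma adjusted p = 1.03e-05, 2.49e-06 and 1.47e-05).

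Markers of border macrophages and blood cells were also read, and their part in these results was not tested. Of 6 border macrophage markers, 5 were below 0.5 FPKM in every library, and the sixth, Cbr2, ranged from 0.0774 to 7.09 FPKM within day 3. Among 6 monocyte markers Ccr2, Plac8 and F13a1 were below 0.5 FPKM throughout, and the sum of the 6 was 2.83 to 4.34 FPKM in sham and 2.51 to 4.54 FPKM in injured libraries. Vcan, the 1 marker of the 6 that was tested, was alone at 1.92 to 3.24 FPKM in sham and 1.94 to 3.22 FPKM on day 7. The sum is thus largely that of Vcan and says little of monocytes. All 5 lymphocyte markers found in the table, of 6 listed, were below 0.5 FPKM. The summed level of 6 neutrophil markers was 4.52 to 7.70 FPKM in sham, 6.76 to 8.09 on day 3, 10.8 to 14.0 on day 7 and 2.85 to 3.23 on day 14. The summed level of 5 red cell genes was 189 to 318 FPKM in sham, 424 to 517 on day 3, 571 to 693 on day 7 and 355 to 369 on day 14, so red cell transcripts were above sham in every injured library. In the fit of all libraries all 5 red cell genes were called higher on day 7, among 16 of 15564 genes, and 3 in the mean of the injured days. The neutrophil markers S100a8 and S100a9 were called lower on day 14 than on day 7 in that fit.

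Markers of other cells of the cord, 6 each for neurons, astrocytes and endothelial cells, gave no call on any day with all libraries. Without the 2 libraries 2 endothelial markers, Cldn5 and Kdr, were called lower on days 3 and 14. Of the astrocyte markers Gfap was called higher on days 3 and 7, Aqp4 lower on day 3, and Gfap, Aqp4 and Gja1 lower on day 14. Of the neuron markers Snap25 was called higher and Chat lower on days 3 and 14. The part of these cells in the levels of the 10 genes was not tested.

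m6A was read from 1 peak list per group, with the fold enrichment of antibody-bound over input RNA given by the authors for each peak, so lists are compared without a test. Of the 10 genes, 7 had a peak in sham, 9 on day 3, 7 on day 7 and 8 on day 14, where 74.4%, 85.5%, 76.6% and 85.1% of all genes tested did. The same 7 genes, Csf1, Csf1r, Il34, Irf8, Irf5, Aif1 and Spi1, had a peak in all 4 lists, against 70.0% of all genes. Counting only peaks of at least 2-fold with a listed p of at most 1e-05, 7 of the 10 genes had one in sham. On days 3, 7 and 14 it was then 6, 7 and 8, so the higher day 3 count rested on weak peaks. The share of all genes under that rule is not given here. The 10 genes held 17 peaks in sham and 19, 18 and 20 on the injured days. Of these 10, 12, 10 and 12 lay in a 3′ UTR, and 4, 5, 5 and 5 in a 5′ UTR by the authors' annotation. The median fold of the genes' peaks was 5.05 in sham, 3.89 on day 3, 4.35 on day 7 and 3.67 on day 14, and that of the whole lists moved likewise (6.03, 4.54, 5.37 and 4.52). List sizes were 32669, 40195, 34136 and 38655 peaks, so folds of different lists are set side by side as values only.

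Tyrobp had no peak in any list. Of the 2133 genes with a mean of 10 to 20 FPKM, the range that holds Tyrobp, 6.33% had none. Its partner Trem2 had a 3′ UTR peak on day 3 (1.83-fold) and day 14 (3.52-fold) only, and Itgam had one 3′ UTR peak on day 3 (1.52-fold). The authors' annotation named that Itgam peak for Gm49368, the Csf1r peaks for Mir6983 and the 3′ UTR peak of Spi1 for Mybpc3, though the gene identifier of each peak was that of Itgam, Csf1r or Spi1. Whether reads of overlapping genes were separated by strand is not stated.

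**Figure D4:**
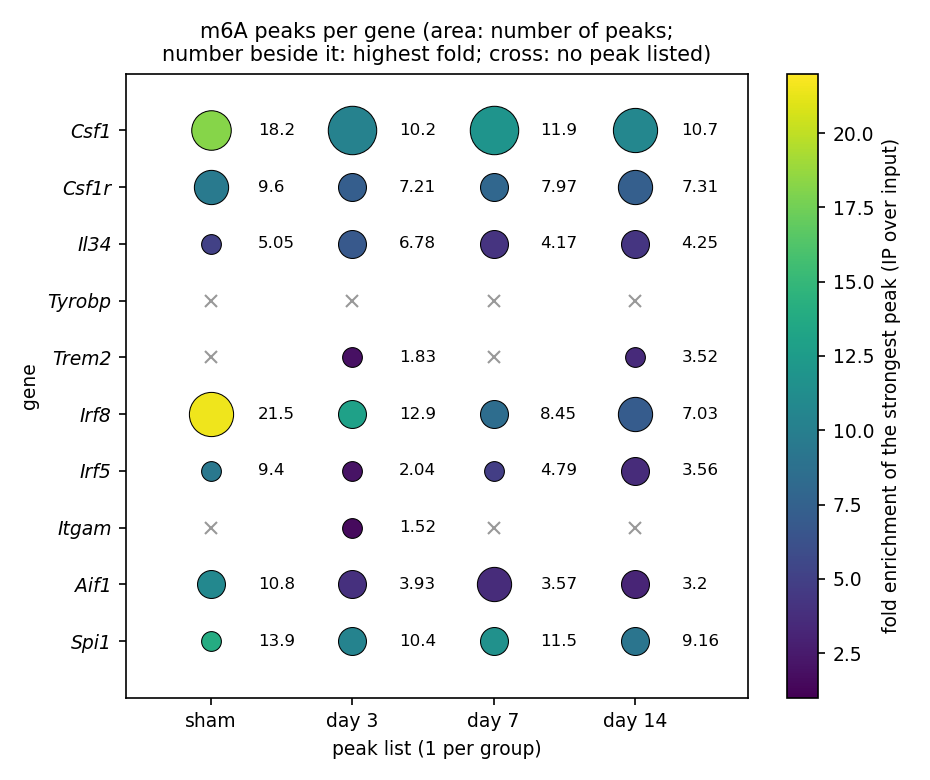
m6A peaks of the 10 genes (vertical axis) in the 4 lists (horizontal axis). The area of a circle gives the number of peaks, its colour and the number beside it the fold enrichment of the strongest, and a cross marks a gene with no peak. Csf1 reaches 18.2-fold in sham and Tyrobp has no peak.

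Csf1 carried the most peaks, 4 in sham, 6 on days 3 and 7 and 5 on day 14. Its strongest in each list was a 3′ UTR peak of 2 exonic blocks, at chr3:107741973-107745734 in sham, with 1313 exonic bases and a fold of 18.2. The overlapping peak had folds of 10.2, 11.9 and 10.7 on days 3, 7 and 14. All 3 injured lists also held peaks at the far 3′ end, between chr3:107741048 and 107741555, that sham lacked, with folds of 1.94 and 3.05 on day 3, 1.79 and 4.43 on day 7 and 2.39 on day 14. Under the stricter rule of at least 2-fold and a listed p of at most 1e-05, the 4.43-fold peak of day 7 and the 2.39-fold peak of day 14 stayed. Neither day 3 peak met that rule. This pattern was chosen for mention after its values were seen.

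Irf8 had the highest fold of any member peak, 21.5 in sham, in a 5′ UTR peak of 210 exonic bases that starts at the gene's 5′ end. The peak at the same start had folds of 12.9, 8.45 and 3.81 on days 3, 7 and 14, though on day 3 it spanned 688 exonic bases in 3 blocks. On days 7 and 14 it did not meet the stricter rule for peaks. The strongest Irf8 peak on day 14 was another 5′ UTR peak, of 7.03-fold, that began where sham held a 9.10-fold peak. Neither of those met the stricter rule. With Irf8 at 0.451 to 0.897 FPKM, these folds rest on little input RNA. The 3′ UTR of Irf8 held 2 short peaks in sham (2.57- and 3.50-fold) and 1 longer peak in each injured list (5.24-, 6.45- and 3.88-fold).

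**Figure D5:**
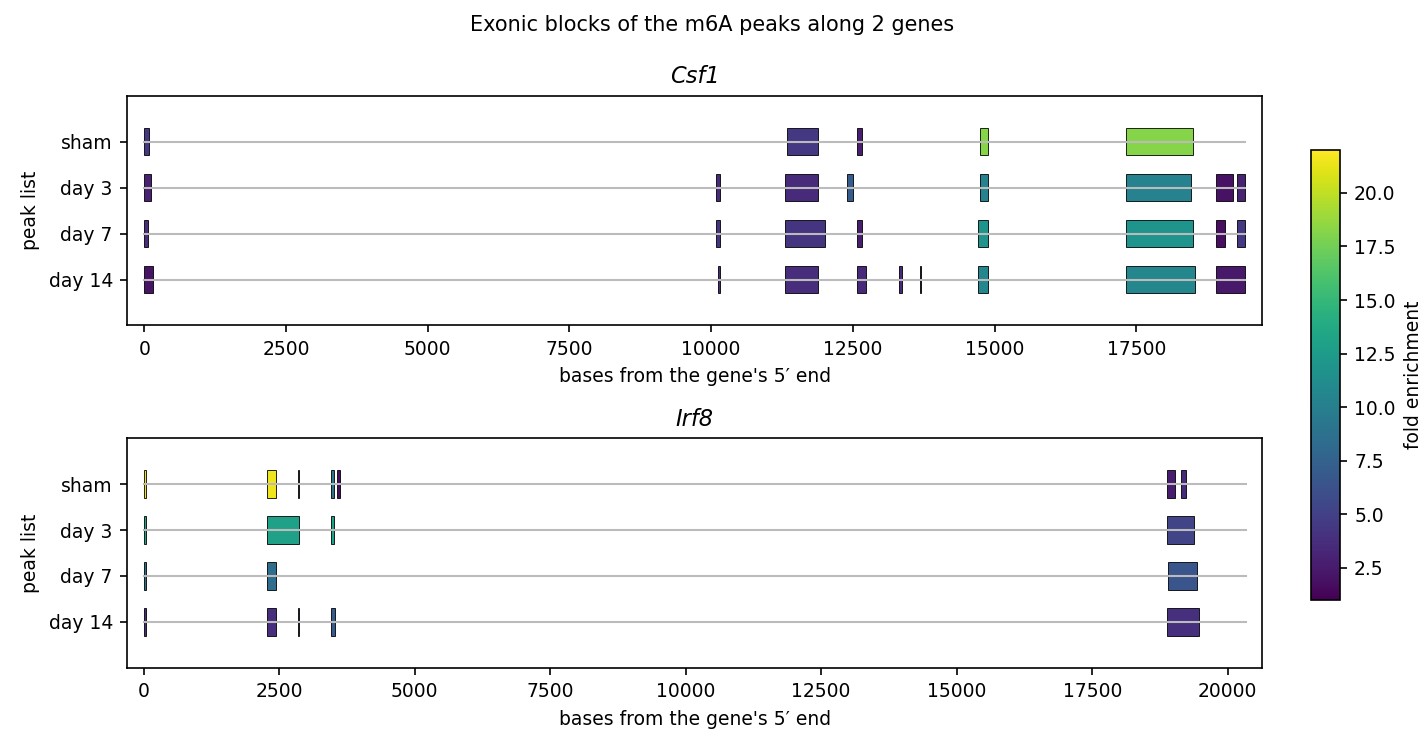
Exonic blocks of m6A peaks along Csf1 and Irf8 by distance in bases from the gene's 5′ end (horizontal axes) in the 4 peak lists (vertical axes), coloured by fold enrichment. The far 3′ end of Csf1 holds blocks in the 3 injured lists and none in sham, though those of day 3 do not meet the stricter rule for peaks.

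The strongest peaks of the remaining genes lay in the same UTR in every list. The 3′ UTR peak of Spi1, at chr2:91115187-91115756 in sham, had folds of 13.9, 10.4, 11.5 and 9.16 in sham and on days 3, 7 and 14. Near its 5′ end a peak of 2 blocks was listed on the injured days only (5.22-, 10.8- and 5.83-fold). The most distal 3′ UTR peak of Csf1r had folds of 9.60, 7.21, 7.97 and 7.31, and the 3′ UTR peak of Il34 had 5.05, 6.78, 4.17 and 4.25. The strongest Irf5 peak, in the 3′ UTR, had folds of 9.40, 2.04, 4.79 and 3.56, and the strongest 5′ UTR peak of Aif1 had 10.8, 3.93, 3.57 and 3.20. The day 14 Aif1 peak overlapped the sham peak over less than 50% of its span.

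Peaks were counted as shared with sham where they overlapped by at least 50% of both. On day 3, 10 of the 19 member peaks were shared (52.6%), against 38.7% of all day 3 peaks. On day 7, 11 of 18 were shared (61.1%), against 49.8% of all peaks, and on day 14, 11 of 20 (55.0%), against 41.0%. Read from sham, 58.8%, 64.7% and 64.7% of the 17 member peaks were shared with days 3, 7 and 14, against 47.6%, 52.1% and 48.6% of all sham peaks. With an overlap of 1 base, 12, 13 and 15 injured member peaks met a sham peak (63.2%, 72.2% and 75.0%), where 63.1%, 73.4% and 64.9% of all peaks did. With 17 to 20 member peaks a list, and several from 1 gene, nothing particular to the 10 genes is read from these shares.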

How the data were processed

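The 12 input libraries had levels of 32884 genes deposited as FPKM, per the file headers. The m6A data were deposited as 1 peak list per group, per the file headers with a score for p and for the false discovery rate as base 10 logarithms and a fold enrichment of antibody-bound over input RNA as a ratio. The submitters' processing notes name HISAT2, ChIPseeker, StringTie and edgeR, without versions. For the peak caller, the build and any pooling of replicates, the entry is "not given in the sources used here". The coordinates of all 10 genes overlap the genes of the same name in GRCm38.p6. No whole-read steps were found in the FPKM, so no count test was run.

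Genes with a mean of at least 0.5 FPKM (15564) were fitted as log2(FPKM + 0.5) with limma 3.58.1 (eBayes with trend, R 4.3.3) as 4 group means, and passed at a Benjamini-Hochberg adjusted p below 0.05 over all genes of a contrast. Peaks were matched within a gene by a Python 3.11.15 script on their genomic spans. Promoters came from a RefSeq table of 250 bases before the start. The fit was also run on simulated data, with the spread between libraries taken without the 2 libraries that stood apart. That run does not show how the fit behaves with those 2 libraries in it.

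All 10 genes are described. Of the other lists, genes that passed, the 2 with the smallest p and the 2 most abundant could be named, with the 3 genes of highest r to each of the 10 genes and the strongest peak per gene and list. Bhlhe41, Fcgr3, the range of Cbr2, called markers of neurons, glia and vessels, and peaks other than the strongest were named after their values were seen. The 10 genes, the lists, the motifs and the alternatives were chosen with earlier results of these data known. Alternatives were other pseudocounts, filters, scalings and weights, a replicate block, fits of 2 groups, fewer or averaged libraries, and other rules for peaks. Libraries with the same replicate number did not deviate together in every pair, so numbers were not used to pair them. A list of oligodendrocyte markers is not reported here.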

Additional observations from a re-analysis of the deposited data

How the results depend on the processing

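The counts of the 10 genes called depended on the 2 libraries that stood apart. Without both, 4, 4, 2 and 4 genes were called on day 3, day 7, day 14 and in the mean of the injured days, and 1 each from day 7 and from day 3 to day 14, against 0 with all libraries. Array weights gave 4, 4, 3 and 4, and 1 each between those days. A fit of 2 groups called 1 gene, Itgam, from day 3 to day 14. Leaving out single libraries gave 0 to 1 genes on day 3, on day 7 and in the mean: Itgam without day 7 library 3, and on day 3 Csf1r without sham library 3. Over all genes, 8 rose and 1 fell on day 3 with all libraries, and 624 rose and 477 fell without the 2; on day 7 the counts were 16 and 0 against 114 and 59, and on day 14 they were 8 and 0 against 377 and 356. A replicate block left 0 of the 10 genes called in every comparison. Of the values of single genes under the alternatives, 17 changed sign, 38 became called and 940 did neither.

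Sign changes concerned small values. When single libraries were left out, Il34 ranged from -0.0052 to 0.45 on day 3, from -0.10 to 0.36 on day 7 and from -0.022 to 0.43 in the mean, with each lowest value without sham library 3; without both libraries it was -0.0052 on day 3. Irf5 on day 7 ranged from -0.050 to 0.17 when single libraries were left out and was -0.026 without both; on day 14 it ranged from -0.0090 to 0.098. Spi1 on day 14 was -0.0063 under quantile scaling, -0.00101 under median-of-ratios scaling and between -0.081 and 0.13 without single libraries. Itgam between day 7 and day 3 was -0.072 with array weights and -0.082 without both libraries, as without day 7 library 3 alone. The cause of these changes was not tested. With a reciprocal overlap of 80%, 5 member peaks were shared with sham on day 3 and 7 on day 14. Depth is unknown, so no limit on low values can be given.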
